A study of Drosophila melanogaster with 9 samples.

Results

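Gene expression in dissected brains of Drosophila melanogaster was compared between flies aged 60 days (60d) and 3 days (3d). The comparison used 6 of the 9 arrays of the series, 3 labelled 60d and 3 labelled 3d. The other 3 were labelled 30d and did not enter the comparison. All flies were kept at 25 °C on a cornmeal molasses agar food topped with dry yeast and aged naturally. The labels give neither strain, sex nor the number of brains in a sample, so the spread behind each p-value is that among 3 arrays an age and may be technical. RNA was extracted with Trizol and hybridised to Affymetrix Drosophila 2.0 arrays, on which a probe set is a group of short probes for 1 transcript. Every probe set that the platform annotation gave 1 gene symbol was kept, 13647 of 18952, and these stood for 11982 genes. A gene was represented by its probe set with the highest mean over the 6 arrays.

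The adult fly brain is made of neurons and glia, most neurons do not divide, and the transcripts of neurons support fast release of transmitter at synapses. Synaptic vesicles fuse with the membrane, are taken back by clathrin-coated pits and are refilled by a proton pump and transporters. Ageing brains of many animals are known for induction of immune transcripts and loss of mitochondrial transcripts. Those best-known groups were set aside here, and the text describes the other genes that separated the ages.

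A gene was called separated when all 3 arrays of one age lay above all 3 arrays of the other. The gap is the distance on the log2 scale between the lowest array of the higher age and the highest array of the lower age. Values are log2(signal + 1), so a difference of 1 is close to a 2-fold difference, and low signals give folds that are too small. Levels are given as mean ± SD with n = 3 arrays per age, and differences as 60d minus 3d ± SE. The test was limma over all 13647 probe sets with Benjamini-Hochberg adjustment, and "rose" and "fell" are used only below an adjusted p of 0.05. Genes beyond the rule stated for naming are the following, each chosen after its values were seen: Sardh, DJ-1alpha, Lst, Gbp1, Spn88Ea, Tsp66E, CCT1, CCT3, CCT4, CCT6, CCT7, CCT8, Csp, Amph, Synj, cpx, Rop, brp, cac, aux, Chc, AP-2sigma, AP-1sigma, nSyb, Vha100-1, unc79, ple, dpr20, DIP-theta and bdl. An exact permutation test of 3 against 3 arrays cannot go below a two-sided p of 0.1, so no single gene was tested that way.

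Separation was common and large gaps were rare. Of the 11982 genes, 1717 were separated with higher values at 60d (14.3%) and 1589 with lower values (13.3%). Together 27.6% of genes were separated and 4.83% passed limma, 243 that rose (2.03%) and 336 that fell (2.8%). Counted as probe sets, 26.7% were separated (14.4% higher, 12.3% lower) and 612 passed (4.48%), 259 higher (1.9%) and 353 lower (2.59%). The median gap of a separated gene was 0.168 among the higher genes and 0.19 among the lower ones. A gap of at least 1 was reached by 50 genes that were higher and 15 that were lower at 60d. The balance of directions differed with the level. Among the 5035 genes with a 6-array mean above the 60th percentile of all values (6.76), 576 were separated with higher values at 60d (11.4%) and 1145 with lower values (22.7%). Of these brighter genes 34.2% were separated and 7.94% passed, 114 that rose (2.26%) and 286 that fell (5.68%), with a median difference of -0.05. Among the 6947 dimmer genes 22.8% were separated, 16.4% higher and 6.39% lower. The lists described here are therefore counted among their brighter members and read against the shares over the 5035 brighter genes, unless stated otherwise.

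**Figure D1:**
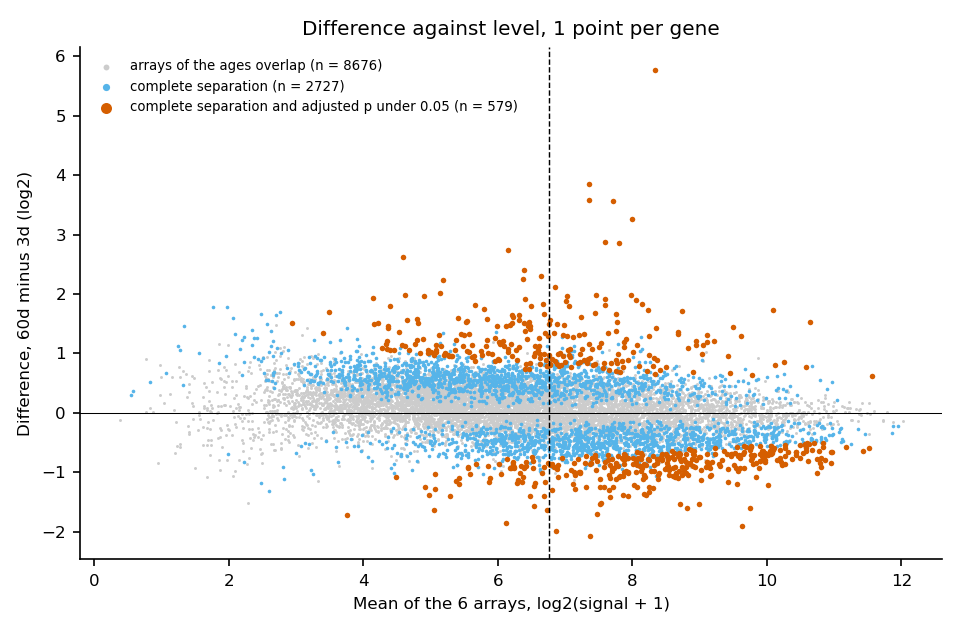
Difference between 60d and 3d (log2, vertical axis) against the mean of the 6 arrays (log2(signal + 1), horizontal axis), with 1 point per gene and the 60th percentile as a dashed line. The 579 genes that passed limma are mostly higher at 60d left of the line and mostly lower at 60d right of it.

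The scaling of the arrays moved the balance of directions. Over all probe sets the median difference was 0.12, and it was 0.01 after quantile normalization and -0.003 after median centring. Separated probe sets were higher at 60d in 53.9% of cases as deposited, in 43.2% after quantile normalization, in 39.4% after median centring and in 42.9% after a filter on low values. Probe sets that passed limma were higher at 60d in 42.3% of cases as deposited, and in 38.9%, 25.3% and 37.4% under the same 3 alternatives.

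The arrays of one age were not equally alike. The 3' to 5' log2 ratio of the GAPDH quality control was 5.03 on 3d replicate 1 and 1.58 to 2.03 on the other 5 arrays, and that of eIF-4a was 6.76 against 2.57 to 3.12. Across brighter probe sets 3d replicate 1 correlated at 0.898 and 0.906 with the other 3d arrays, which correlated at 0.978 with each other. Without it 1144 probe sets passed in place of 612, and all 142 named genes that passed also passed without it. Those genes had been chosen as passing with it, so this does not measure what the array did to their values. Summed signals of head fat body markers were 20877 on 60d replicate 1, 10237 on 60d replicate 2 and 15291 on 60d replicate 3, against 12168 to 15062 at 3d. The 13 neuron markers and 16 glia markers of the labelled tissue summed to at least 9909 and 10841 on every array. None of the markers of any cell type was at 0, those of gut and ovary included, so this does not show detection. Below the 40th percentile of all values on every array lay 1 of 13 neuron and 0 of 16 glia markers. The same held for 14 of 20 gut and 13 of 26 ovary markers. Median signals were 60.6 to 67.6 at 3d and 66.5 to 77.0 at 60d.

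The widest gaps among genes higher at 60d belonged to a tetraspanin, a methyltransferase, a transporter, serine protease inhibitors and the Arc genes. Tsp42Ed, a 4-pass membrane protein of the tetraspanin family, stood at 6.07, 6.52 and 6.50 on the 3d arrays and at 9.97, 9.45 and 9.48 on the 60d arrays. Its gap of 2.93 was the widest of the comparison outside the set-aside lists, and it rose 9.63-fold (difference 3.27 ± 0.21, limma adjusted p = 2.92e-06). Gnmt, which methylates glycine with S-adenosylmethionine as the donor, stood at 4.73, 5.93 and 6.05 at 3d and at 9.97, 8.59 and 8.89 at 60d. The lowest 3d array of Gnmt was replicate 1 and its highest 60d array was replicate 1, so these single arrays added to its mean difference of 3.58 ± 0.37 (limma adjusted p = 0.000281), and the gap was 2.54. MFS3, a transporter of the major facilitator superfamily, lay between 5.21 and 5.28 at 3d and between 7.27 and 7.93 at 60d (difference 2.24 ± 0.22, limma adjusted p = 0.000229). The serpin Spn88Eb, an inhibitor of serine proteases, rose from 5.18 ± 0.06 to 7.58 ± 0.54, and the serine protease Sp7, known from the melanisation response, from 6.05 ± 0.27 to 8.01 ± 0.42 (limma adjusted p = 0.000348 and 0.000768). The odorant-binding protein Obp19d, the beta-tubulin betaTub60D and the P450 enzyme Cyp6g1, known from insecticide resistance, rose by 1.89 ± 0.25, 1.62 ± 0.23 and 1.80 ± 0.26. Among the 15 widest gaps 4, CG9150, CG9689, CG30026 and CG16713, were genes named here only by number, which rose by 1.82 to 2.74. On 14 of these 15 genes 60d replicate 1 was the highest 60d array, and all 15 passed limma without it. They had been chosen for wide gaps on the same arrays, which favoured this outcome.

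**Figure D2:**
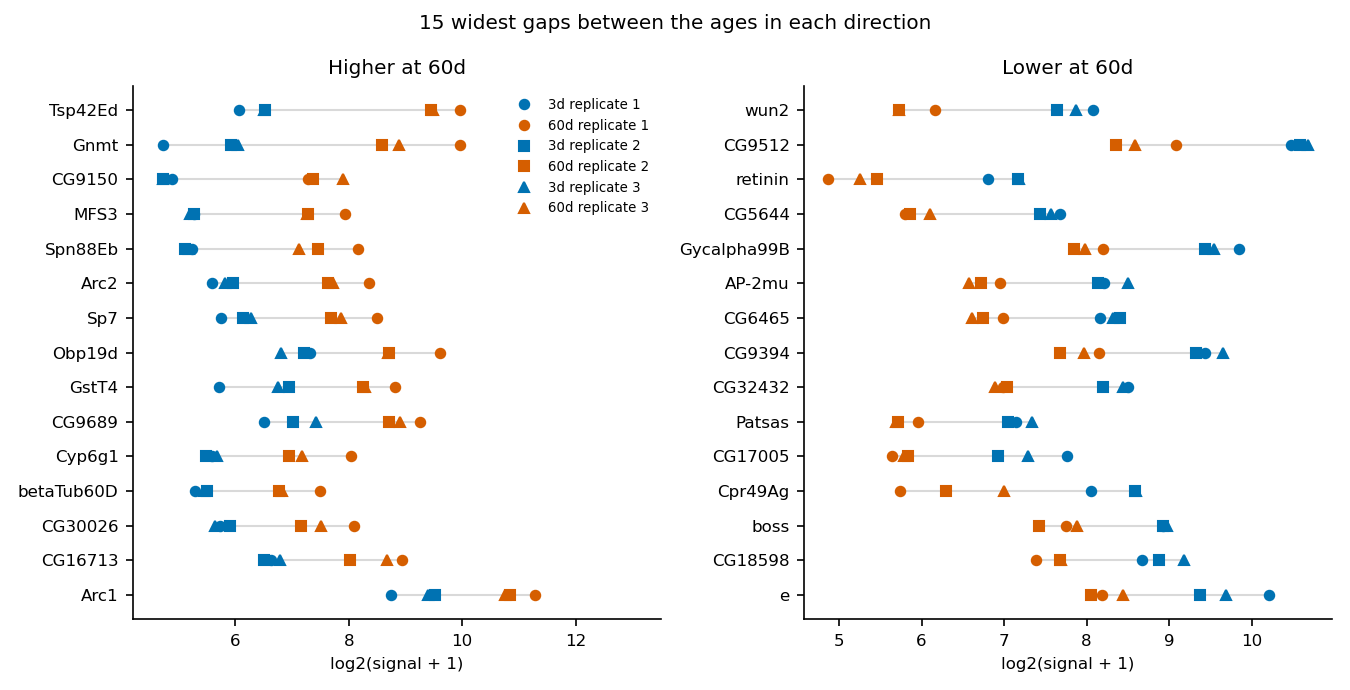
log2(signal + 1) (horizontal axis) on each of the 6 arrays for the 15 genes with the widest gap in each direction, 3d in blue and 60d in orange, with 1 symbol per replicate. In every row the 3 blue and 3 orange symbols do not overlap, and the gap narrows from 2.93 for Tsp42Ed to 1.24 for Arc1 on the left and from 1.47 for wun2 to 0.94 for e on the right.

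Other enzymes that turn over methyl groups and 1-carbon units also rose. S-adenosylmethionine donates methyl groups, and the product S-adenosylhomocysteine is removed by Ahcy. Ahcy was 5.36, 5.60 and 5.92 at 3d and 7.72, 6.60 and 7.09 at 60d, a rise of 1.51 ± 0.27 (limma adjusted p = 0.00862). The folate enzyme pug was 5.75, 5.99 and 6.32 at 3d and 7.99, 6.90 and 7.63 at 60d, a rise of 1.49 ± 0.27 with the same adjusted p in limma. Neither gene's ages overlapped, and 60d replicate 2 was the lowest old array for Gnmt, Ahcy and pug alike. Sardh, which demethylates the sarcosine that Gnmt makes, rose from 3.92 ± 0.19 to 5.89 ± 0.50 at a low level (limma adjusted p = 0.00214). The synthetase Sam-S, which makes S-adenosylmethionine, was separated in the other direction at -0.51 ± 0.17 (limma adjusted p = 0.0978), as was Cbs, which leads homocysteine towards cysteine, at -0.34 ± 0.20 (limma adjusted p = 0.339). Of the 15 members of this list, 5 were separated higher and 2 lower, 4 rose and 0 fell, against 2.03% and 2.8% over all genes. Of its 8 brighter members 1 was separated higher (12.5%) and 2 lower (25.0%), close to the shares over brighter genes, and 1 rose. With each array left out in turn 4 members rose, and Gnmt, Ahcy and pug passed each time. Paics, an enzyme of purine synthesis, rose by 1.24 ± 0.27 (limma adjusted p = 0.0212). Head fat body markers were likewise lowest on 60d replicate 2 and highest on 60d replicate 1, and their part in these rises was not tested.

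A minority of the glutathione transferases, which conjugate toxic compounds to glutathione, rose in old brains. GstT4 stood at 5.71, 6.95 and 6.75 at 3d and at 8.82, 8.24 and 8.29 at 60d, with no overlap and the lowest value on 3d replicate 1. It rose by 1.98 ± 0.29 (limma adjusted p = 0.0025). GstD2 and GstE6 rose by 1.34 ± 0.21 and 1.03 ± 0.21 (limma adjusted p = 0.00379 and 0.0154). Of 23 brighter glutathione transferases 7 were separated higher (30.4%) and 2 lower, 14 overlapped, 3 rose, and the median was 0.33. The median was 0.21 without 3d replicate 1. Among 25 brighter P450 genes 6 were separated higher and 2 lower, and Cyp4p1 and Cyp6a23 rose by 1.29 ± 0.24 and 1.30 ± 0.27 (limma adjusted p = 0.00867 and 0.0154). The median of that list was 0.19, and it was -0.001 without 60d replicate 1. The oxidative stress sensor homologue DJ-1alpha rose by 1.14 ± 0.17, and the branched-chain aminotransferase Bcat from 8.61 ± 0.40 to 9.83 ± 0.17 (limma adjusted p = 0.0033 and 0.00448).

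Chaperones were often separated but by small amounts. Of 28 brighter heat shock proteins and chaperones 11 were separated higher (39.3%) and 3 lower, yet 1 rose (1 to 4 with each array left out). The chaperonin subunit CCT5, part of the ring that folds actin and tubulin, was 6.31 ± 0.30 at 3d and 7.62 ± 0.33 at 60d. It rose by 1.32 ± 0.23 (limma adjusted p = 0.0066), with no overlap between the ages. The subunits CCT1, CCT2, CCT3, CCT4, CCT6 and CCT8 were separated with differences of 0.37 to 0.64 and did not pass. CCT7 overlapped between the ages. The small heat shock protein Hsp26, which is dimmer and not among the 28, rose by 0.99 ± 0.20 (limma adjusted p = 0.012). This call was lost without 3d replicate 3 or 60d replicate 3. Of the 5 dimmer members of the list 2 rose and 0 fell. The list's median of 0.12 had no stable sign, with -0.002 to 0.24 over the scalings.

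The plasticity genes Arc1 and Arc2, which derive from a retrotransposon Gag gene and form capsids that carry RNA, rose together. Arc1 stood at 8.74, 9.52 and 9.41 at 3d and at 11.28, 10.84 and 10.76 at 60d. Arc2 stood at 5.59, 5.96 and 5.81 at 3d and at 8.35, 7.63 and 7.73 at 60d. No array of one age reached the other in either gene, and the rises were 1.74 ± 0.21 and 2.12 ± 0.23 (limma adjusted p = 0.000684 and 0.00038). The transcription factor CrebB, which acts in long-term memory, rose by 0.89 ± 0.19, and kay, the fly Fos, by 0.67 ± 0.15 (limma adjusted p = 0.0203 and 0.023). Both of the latter calls were lost without 3d replicate 3 or 60d replicate 3. The painless channel pain rose from 6.26 ± 0.03 to 7.24 ± 0.10 (limma adjusted p = 0.0107). Plasticity genes did not rise as a group. Of 16 brighter genes of learning, plasticity and the postsynaptic scaffold 3 were separated higher (18.8%) and 6 lower (37.5%). The shares over brighter genes were 11.4% and 22.7%. In that list 3 rose and 1 fell, with a median of -0.10.

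Several lists of secreted proteins had members that rose. Among lectins, GILT proteins and other secreted immune-like proteins 7 of 17 brighter members were separated higher (41.2%) and 1 lower, with a median of 0.36, 1 that rose (0 to 3 with each array left out) and 1 that fell. Of 10 brighter odorant-binding and takeout proteins 4 were separated higher and 1 lower, with a median of 0.66, 1 that rose (1 to 3 with each array left out) and 1 that fell. Idgf1, a secreted chitinase-like growth factor, rose from 6.92 ± 0.29 to 8.58 ± 0.57, and the sterol-binding Npc2b from 8.46 ± 0.10 to 9.76 ± 0.30 (limma adjusted p = 0.00395 and 0.0015). The hormone Lst, limostatin, rose by 1.68 ± 0.29 and the cytokine Gbp1 by 1.11 ± 0.19, both with a limma adjusted p of 0.0058. The serpins Spn47C, Spn88Ea and Spn42Dd rose beside Spn88Eb by 1.47 ± 0.22, 0.87 ± 0.20 and 0.82 ± 0.20. Of all 65 matched serine proteases and serpins, 58 of them dimmer, 19 were separated higher and 0 lower, and 4 rose (2 to 4 with each array left out). Over dimmer genes 16.4% were separated higher and 6.39% lower, and over all genes 14.3% and 13.3%. The neprilysin-like peptidases moved in both directions, with rises of 2.30 ± 0.38 for Nepl21, 1.15 ± 0.18 for Nepl15 and 1.08 ± 0.26 for Nep6, and a fall by 1.25 ± 0.24 for Nepl5.

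Tetraspanins moved in both directions. Of 13 brighter members 5 were separated higher (38.5%) and 4 lower (30.8%), with 2 that rose, 4 that fell (1 to 4 with each array left out) and a median of 0.14. Tsp42Ed and Tsp42El rose, the latter from 6.78 ± 0.12 to 7.94 ± 0.31 (limma adjusted p = 0.00732). Their neighbour in the gene cluster Tsp42Ej was 9.78, 10.22 and 10.17 at 3d and 9.26, 8.72 and 9.24 at 60d, a fall by 0.98 ± 0.19 (limma adjusted p = 0.00976). Tsp5D fell by 0.66 ± 0.12 from 11.28 ± 0.10, and Tsp97E and Tsp66E fell by 0.62 ± 0.13 and 0.73 ± 0.18.

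Barrier and matrix genes also split. Gli, the gliotactin of tricellular septate junctions, rose from 6.62 ± 0.33 to 7.95 ± 0.31 (limma adjusted p = 0.00624), and 5 of 19 brighter septate junction genes were separated higher (26.3%) against 2 lower. The extracellular matrix protein Tig rose by 1.64 ± 0.32 (limma adjusted p = 0.0111). The probe sets of trol, the fly perlecan, passed in opposite directions. One differed by 0.78 ± 0.20 and another by -1.15 ± 0.18 (limma adjusted p = 0.039 and 0.0039), and the other 6 overlapped between the ages, so no direction is given for this gene. The peroxidasin Pxn and the collagen IV chain vkg, both also made by haemocytes, fell by 1.41 ± 0.20 and 1.11 ± 0.25 (limma adjusted p = 0.00248 and 0.0208). Another probe set of Pxn differed by 0.58 ± 0.33 and overlapped between the ages. Of 15 brighter matrix genes, which do not include Tig, 2 were separated higher and 4 lower, and 11 differed by more than 0. By limma 2 of them fell and 1 passed as higher. That 1 is trol, counted by its brightest probe set at 0.78, so it gives no clear rise. Of 10 brighter haemocyte markers 2 were separated higher and 3 lower, with a median of 0.256. Summed signals of the 15 haemocyte markers, which include Pxn and vkg, ran from 2907 to 3708 at 3d and from 2703 to 3821 at 60d. The dim muscle genes Mp20, Mlp60A and bt rose by 1.92 ± 0.30, 1.56 ± 0.23 and 1.47 ± 0.21 from 3d means of 5.44, 5.54 and 5.75. Other probe sets of Mlp60A differed by 0.15 ± 0.61 and 0.70 ± 0.42 and overlapped between the ages. Of 14 brighter muscle markers 2 were separated higher and 1 lower, 11 overlapped and 0 passed. The sum of 21 muscle markers, 4826 to 6165 at 3d and 6075 to 6778 at 60d, overlapped between the ages.

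The widest gaps among genes lower at 60d held signalling and membrane proteins and genes of the eye. The lipid phosphate phosphatase wun2 stood at 8.08, 7.64 and 7.88 at 3d and at 6.17, 5.72 and 5.73 at 60d. It fell by 1.99 ± 0.21 with a gap of 1.47 (limma adjusted p = 0.000348). Gycalpha99B, a subunit of the soluble guanylyl cyclase that answers nitric oxide with cyclic GMP, stood at 9.85, 9.44 and 9.55 at 3d and at 8.21, 7.85 and 7.98 at 60d, a fall by 1.60 ± 0.18 (limma adjusted p = 0.000411). The clathrin adaptor subunit AP-2mu stood at 8.21, 8.14 and 8.50 at 3d and at 6.95, 6.72 and 6.58 at 60d, a fall by 1.54 ± 0.19 (limma adjusted p = 0.000969). The ages did not overlap in any of these 3 genes. Ebony (e), a glial enzyme that joins beta-alanine to dopamine and histamine, fell from 9.76 ± 0.42 to 8.23 ± 0.19 (limma adjusted p = 0.0016). The lens protein retinin, the photoreceptor ligand boss and the cuticle protein Cpr49Ag fell by 1.86 ± 0.23, 1.26 ± 0.18 and 2.07 ± 0.28. CG9512, named here only by number, fell from 10.58 ± 0.10 to 8.68 ± 0.37 (limma adjusted p = 0.000179). All 30 widest gaps, 15 in each direction, passed limma in every one of the 14 alternatives tried. These genes had been chosen as passing genes with the widest gaps on the same arrays, so their choice favoured this outcome. In bulk brain RNA fewer cells of a type and less RNA per cell cannot be told apart.

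More than the background share of synaptic vesicle genes was lower in old brains. Of 30 brighter members 17 were separated lower (56.7%) and 1 higher, and 11 fell while 1 rose, against 22.7% separated lower and 5.68% that fell over brighter genes. The median was -0.42, with -0.54 to -0.25 over the scalings, and the number that fell ran from 4 to 16 when each array was left out in turn. Syngr, the vesicle membrane protein synaptogyrin, stood at 10.91 to 11.12 on the 3d arrays and at 10.29, 10.09 and 10.21 on the 60d arrays. Its fall by 0.81 ± 0.13 (limma adjusted p = 0.0039) came with SDs of 0.10 at both ages. The endocytic adaptor nwk, which shapes membranes at nerve terminals, was 10.56, 10.55 and 10.54 at 3d and 9.89, 9.66 and 9.70 at 60d, a fall by 0.80 ± 0.13 (limma adjusted p = 0.00551). The calcium sensor Syt7 fell by 0.90 ± 0.18 (limma adjusted p = 0.0119). The vesicle chaperone Csp, amphiphysin (Amph), the phosphatase synaptojanin (Synj) and complexin (cpx) fell by 0.57 to 0.66. The active zone scaffold brp was at 0.15 ± 0.21 and the calcium channel cac at 0.12 ± 0.14, and both overlapped between the ages.

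**Figure D3:**
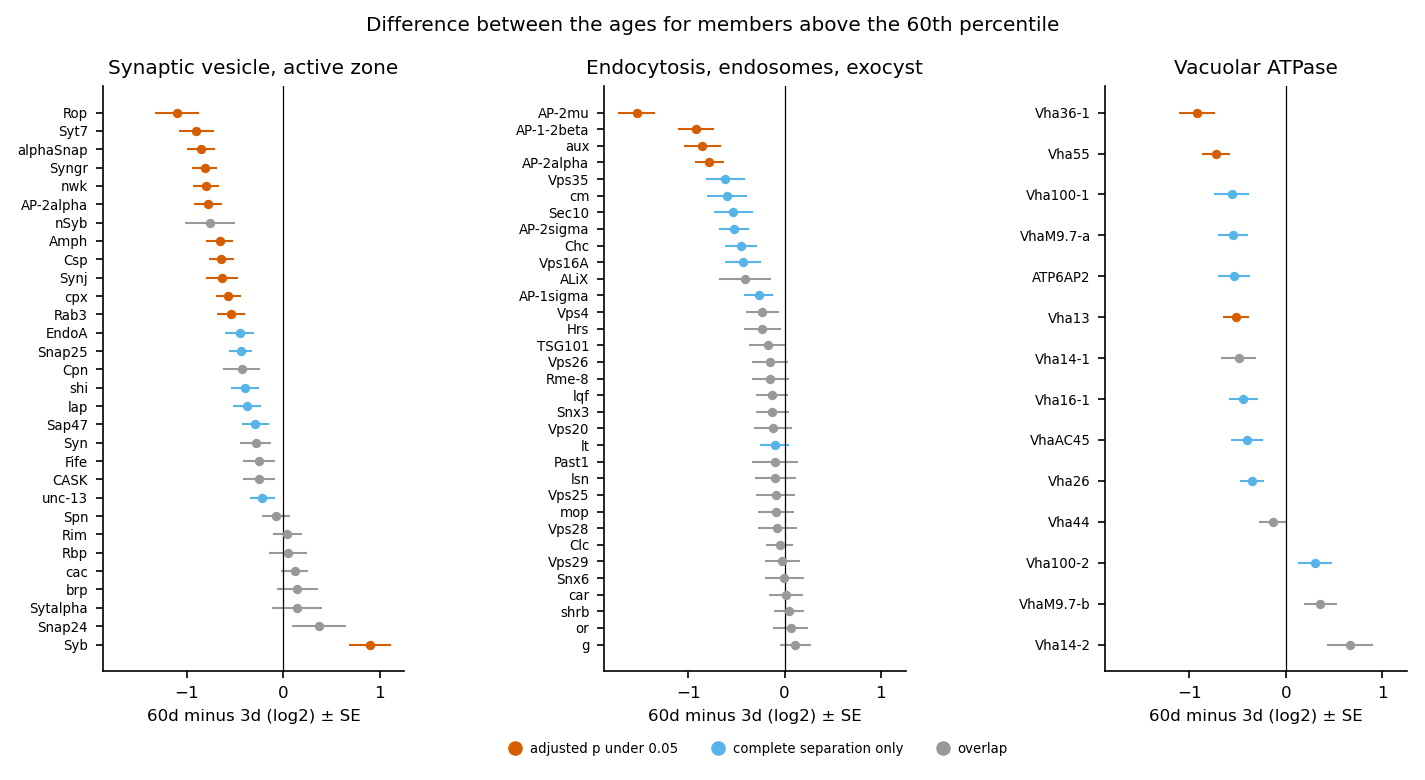
Difference between 60d and 3d (log2, horizontal axis) ± SE from limma for each member above the 60th percentile of 3 lists, coloured by whether the gene passed limma, was separated or overlapped. The synaptic vesicle list runs from -1.10 for Rop to 0.90 for Syb, and AP-2mu stands apart in the endocytosis list at -1.54.

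Some clathrin adaptor subunits fell. Beside AP-2mu, the adaptor subunits AP-2alpha and AP-1-2beta fell by 0.78 ± 0.15 and 0.92 ± 0.19 (limma adjusted p = 0.00977 and 0.0142). The auxilin aux, which uncoats clathrin vesicles, was 9.57, 8.98 and 9.29 at 3d and 8.57, 8.17 and 8.54 at 60d, a fall by 0.85 ± 0.19 (limma adjusted p = 0.0229). The adaptor subunits AP-2sigma and AP-1sigma and the clathrin heavy chain Chc were separated at -0.52, -0.27 and -0.45 and did not pass. Of 33 brighter genes for endocytosis, endosomes and exocyst 12 were separated lower (36.4%) and 0 higher, 4 fell (1 to 5 with each array left out) and 0 rose, and the median was -0.15. Relative to the 3d mean the list median was -0.04 on 60d replicate 1, within the 3d range of -0.06 to 0.09, and -0.36 and -0.18 on the other 60d arrays. Of 17 brighter Rab GTPases 7 were separated lower (41.2%), and the vesicle protein Rab3 fell by 0.54 ± 0.14 (limma adjusted p = 0.045).

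The vacuolar ATPase, whose proton gradient loads vesicles and acidifies lysosomes, was lower in most of its brighter subunits. Of 14 brighter subunits 9 were separated lower (64.3%) and 1 higher, and 3 fell. Vha55, of the catalytic sector, was 10.54, 10.55 and 10.80 at 3d and 10.03, 9.71 and 9.98 at 60d, a fall by 0.72 ± 0.14 (limma adjusted p = 0.0129). Vha36-1 and Vha13 fell by 0.92 ± 0.19 and 0.51 ± 0.14 (limma adjusted p = 0.0136 and 0.0475). The list median was -0.47, with -0.59 to -0.29 over the scalings, but 0 to 6 subunits fell when each array was left out in turn. The 12 dimmer subunits held 2 separated higher and 0 lower.

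Some paralogues of one gene pair stood on opposite sides, a comparison made after the values were seen. The ubiquitous synaptobrevin Syb was 7.14, 7.61 and 7.70 at 3d and 8.69, 8.07 and 8.39 at 60d, a rise of 0.90 ± 0.22 (limma adjusted p = 0.0322). The neuronal nSyb was 8.35, 9.25 and 9.11 at 3d and 8.65, 7.91 and 7.90 at 60d. These ages overlapped through replicate 1 of each, and the difference of -0.76 ± 0.26 did not pass (limma adjusted p = 0.112). In the proton pump Vha100-1 was separated at -0.56 ± 0.18 and Vha100-2 at 0.31 ± 0.18, and neither passed (limma adjusted p = 0.101 and 0.334). Whether the differences of the paralogues differ from each other was not tested.

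Some ion transporters and channels fell. Of 19 brighter chloride, sodium and proton transporters 10 were separated lower (52.6%), 3 fell (1 to 6 with each array left out) and the median was -0.29. The potassium-chloride cotransporter kcc, which keeps chloride low in neurons, was 11.68, 11.04 and 11.05 at 3d and 10.33, 10.19 and 10.19 at 60d. It fell by 1.02 ± 0.17 (limma adjusted p = 0.00448), with 3d replicate 1 the highest array. The anion exchanger Ae2 and the sodium pump subunit nrv2 fell by 0.63 ± 0.14 and 0.51 ± 0.13 (limma adjusted p = 0.022 and 0.0428). Among 21 brighter ion channels 8 were separated lower (38.1%) and 1 higher, and 4 fell (1 to 5 with each array left out). They included unc79 and unc80, partners of the sodium leak channel, at -0.84 ± 0.15 and -0.97 ± 0.21, and 1 of 3 probe sets of the potassium channel regulator qvr (sleepless) at -0.70 ± 0.14 (limma adjusted p = 0.00866, 0.0168 and 0.0139).

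**Figure D4:**
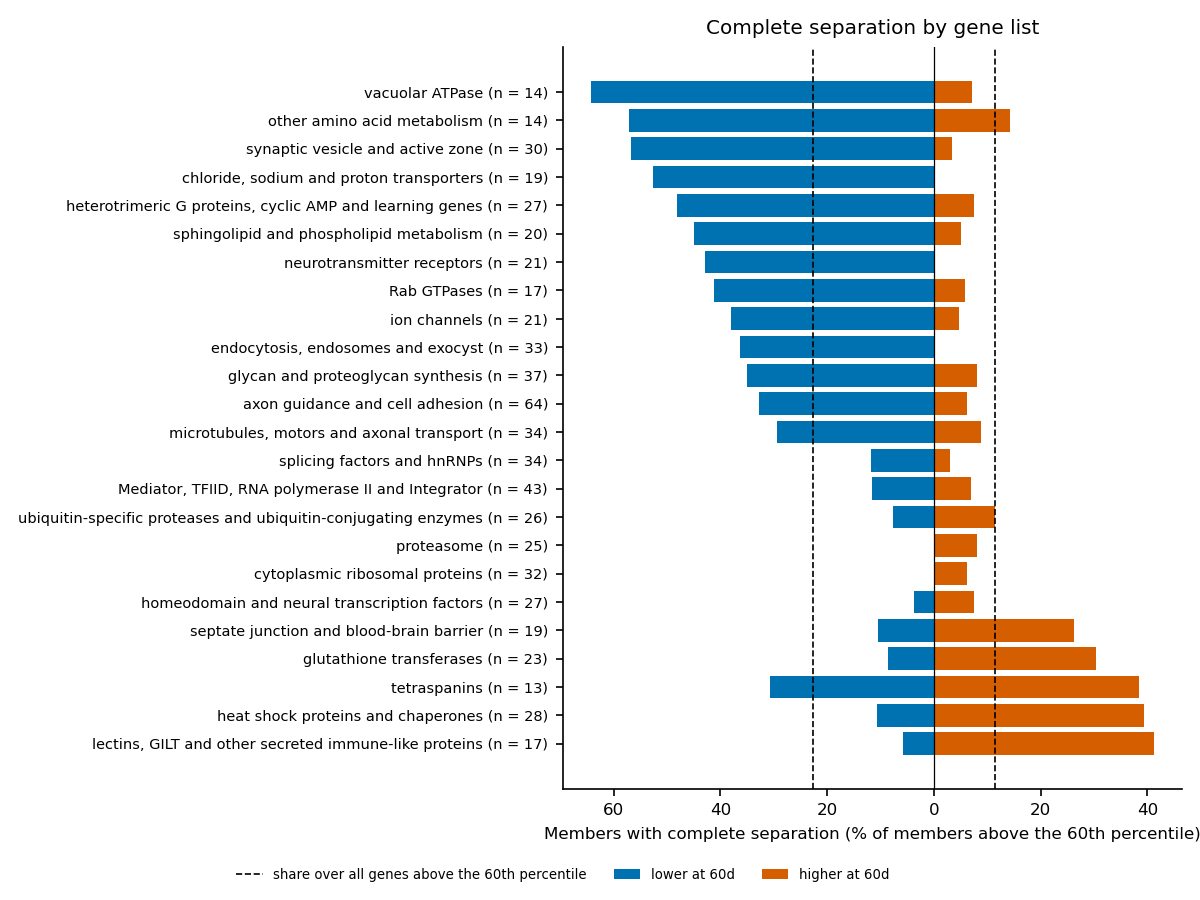
Share of members above the 60th percentile with complete separation (%, horizontal axis), lower at 60d to the left and higher to the right, for 24 lists with their number of such members. Dashed lines mark 22.7% and 11.4%, the shares over all 5035 brighter genes. The vacuolar ATPase (64.3% lower) and lectin (41.2% higher) lists stand at the ends, and ribosomal and proteasome genes lie inside both lines.

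Some receptors and enzymes of transmitter metabolism fell. The nicotinic receptor subunit nAChRbeta1 was 11.58, 11.21 and 11.32 at 3d and 10.71, 10.44 and 10.45 at 60d, a fall by 0.84 ± 0.14 (limma adjusted p = 0.00475). nAChRbeta2 fell by 0.65 ± 0.14 (limma adjusted p = 0.022), and 9 of 21 brighter receptors were separated lower (42.9%) against 0 higher, while 2 fell (1 to 5 with each array left out). Gad1, which makes GABA, was 11.42, 11.22 and 11.24 at 3d and 10.72, 10.57 and 10.62 at 60d, and fell by 0.65 ± 0.12 (limma adjusted p = 0.00955). The acetylcholine transporter VAChT and the glutamate transporter Eaat2 each fell by 0.64, with limma adjusted p of 0.0113 and 0.0255. Gdh, the glutamate dehydrogenase, was 9.97, 10.05 and 10.16 at 3d and 9.19, 9.02 and 9.20 at 60d, and fell by 0.93 ± 0.15 (limma adjusted p = 0.00379). Ddc, the last step to dopamine and serotonin, and Pu, which starts synthesis of the biopterin cofactor, fell by 0.76 ± 0.18 and 0.91 ± 0.19 (limma adjusted p = 0.0307 and 0.0171). Tyrosine hydroxylase (ple) was separated at -0.58 ± 0.17 and did not pass (limma adjusted p = 0.0693). Of 14 brighter genes of other amino acid metabolism, which include Gdh and Ddc, 8 were separated lower (57.1%) and 2 higher, and 3 fell (1 to 4 with each array left out). Summed signals of the 13 neuron markers, which include Gad1 and VAChT, were 12913 to 13839 at 3d and 9909 to 10707 at 60d. Of the 12 brighter neuron markers 5 were separated lower and 0 higher, 2 fell, and the median was -0.355. Among the neuron markers that overlapped was elav, the pan-neuronal RNA-binding protein, at -0.04 ± 0.13. Of 16 brighter glia markers 5 were separated lower and 3 higher, 2 fell and 1 rose, with a median of -0.236. The glial marker repo overlapped between the ages, at -0.20 ± 0.16.

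Neuropeptides moved singly. SIFa was 7.77, 7.51 and 7.88 at 3d and 6.66, 6.30 and 6.61 at 60d, and the insulin-like peptide Ilp5 was 8.48, 8.48 and 8.68 at 3d and 7.63, 6.60 and 7.27 at 60d. The ages did not overlap in either gene, and the falls were 1.20 ± 0.20 and 1.38 ± 0.24 (limma adjusted p = 0.00518 and 0.00625). Both genes are expressed in few neurosecretory cells. Of 27 brighter neuropeptide genes 3 were separated higher (11.1%) and 6 lower (22.2%), shares close to those over brighter genes.

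Some genes of G protein signalling and light transduction fell. Of 27 brighter genes of G proteins, cyclic AMP and learning 13 were separated lower (48.1%) and 2 higher, and 4 fell (0 to 5 with each array left out), with a median of -0.21. Gbeta5 stood at 8.12, 8.63 and 8.56 at 3d and at 7.53, 7.29 and 7.47 at 60d, and fell by 1.01 ± 0.19 (limma adjusted p = 0.0103). The arrestin Arr1 fell by 0.58 ± 0.13 (limma adjusted p = 0.0207). For Galphaq, which couples rhodopsin to phospholipase C, 1 of 3 probe sets fell by 0.65 ± 0.14 (limma adjusted p = 0.0192). The others differed by -0.001 ± 0.15 and 0.09 ± 0.18 and overlapped between the ages. The light-gated channel trpl fell by 1.59 ± 0.23 and the eye protein kinase C inaC by 0.82 ± 0.13 (limma adjusted p = 0.0025 and 0.00405). Summed signals of 20 photoreceptor and retina markers, with trpl, inaC, Arr1, retinin and boss among them, were 18889 to 20627 at 3d and 13407 to 15152 at 60d. Of these 20 markers 12 were separated lower and 9 fell, and how much eye tissue stayed with each brain was not tested.

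Immunoglobulin-domain proteins of the dpr and DIP families bind each other in pairs on neurons. Of 64 brighter genes of axon guidance and adhesion 21 were separated lower (32.8%) and 4 higher, with 6 that fell (1 to 11 with each array left out) and a median of -0.17. The adhesion protein klg, which acts in long-term memory, was 10.64, 9.63 and 9.75 at 3d and 8.93, 8.76 and 8.84 at 60d. Its fall by 1.16 ± 0.23 (limma adjusted p = 0.011) was smaller without 3d replicate 1 at -0.85. The proteins dpr10 and dpr19 fell by 1.00 ± 0.19 and 0.85 ± 0.17, and dpr20, DIP-theta and bdl by 0.77 ± 0.16, 0.64 ± 0.17 and 1.03 ± 0.21. DIP-alpha was separated in the other direction at 0.46 and did not pass (limma adjusted p = 0.0949). The dpr and DIP families were not counted apart from the wider list, so these genes do not show a fall of the families.

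Of 20 brighter sphingolipid and phospholipid genes 9 were separated lower (45.0%) and 1 higher, with a median of -0.29. The CDP-diacylglycerol synthase Cds, which replenishes phosphoinositides, fell from 11.10 ± 0.13 to 10.45 ± 0.10 (limma adjusted p = 0.0125). Of 34 brighter genes of microtubules, motors and axonal transport 10 were separated lower (29.4%) and 3 higher, and 2 fell, against 22.7% separated lower and 5.68% that fell over brighter genes. The kinesin Klp68D, which carries axonal cargo, fell by 0.88 ± 0.22 (limma adjusted p = 0.039). For the dynein heavy chain Dhc64C 1 of 3 probe sets fell by 1.01 ± 0.23 (limma adjusted p = 0.028), and another was separated in the other direction at 0.34 ± 0.21 (limma adjusted p = 0.362). The haem synthesis enzyme Alas fell by 0.98 ± 0.20, and the NADP malic enzyme Men-b by 0.80 ± 0.14 (limma adjusted p = 0.0135 and 0.00589).

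On the 6 arrays several groups, not all of them housekeeping genes, were separated at or below the shares over brighter genes. In those given here limma passed 0 brighter members. Of 34 brighter splicing factors 1 was separated higher and 4 lower, and of 43 genes of Mediator, TFIID, RNA polymerase II and Integrator 3 were higher and 5 lower. Of 32 cytoplasmic ribosomal proteins 2 were separated higher and 0 lower, and of 25 proteasome subunits 2 were higher and 0 lower. Homeodomain and neural transcription factors (27 genes), nuclear pore genes (24), autophagy genes (16) and ER folding genes (22) had at most 4 separated members in either direction. Without 3d replicate 1 this did not hold for the homeodomain and neural transcription factors, of which 12 were then separated higher (44.4%, against 20.3% over brighter genes) and 3 rose. The medians of the ribosomal and proteasome lists, 0.06 and 0.01, changed sign between scalings.

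**Figure D5:**
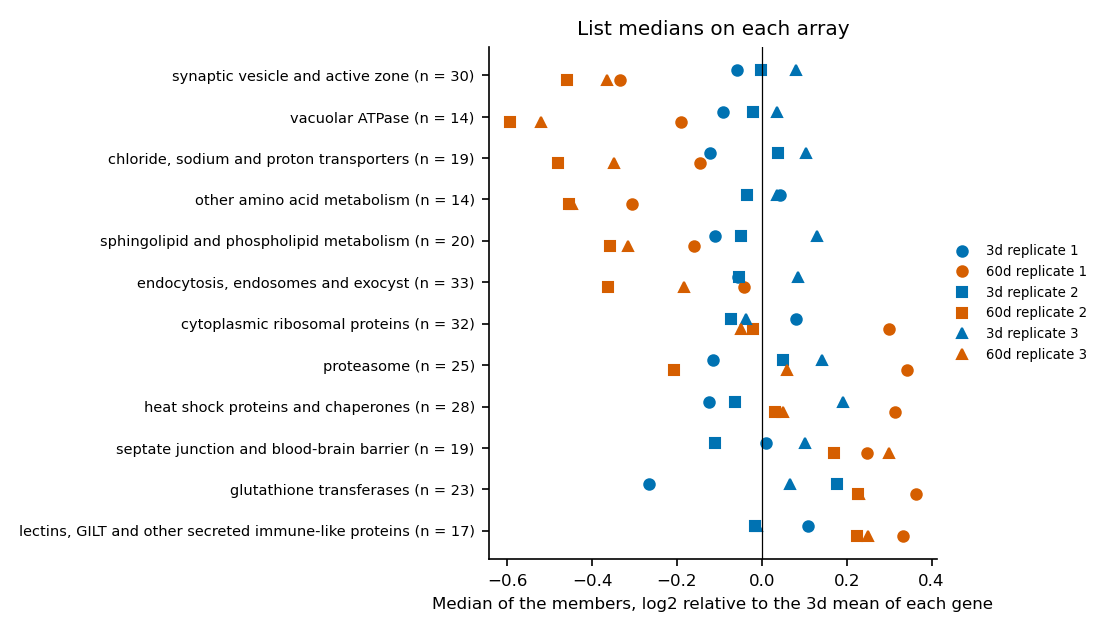
Median over the members of 12 lists (log2 relative to each gene's 3d mean, horizontal axis) on each array, 3d in blue and 60d in orange, with 1 symbol per replicate. In the synaptic vesicle list the 60d arrays sit at -0.46 to -0.33 and the 3d arrays at -0.06 to 0.08, whereas the ribosomal and proteasome lists overlap between the ages.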

How the data were processed

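The deposited values are array signal intensity per probe set on a linear scale. Both GCRMA and MAS5 appear, per the submitters' processing notes, with no role given for either. The 2% trimmed mean of every array was 150.002, so the deposited intensity values had been scaled to a common mean. Signals were transformed as log2(signal + 1). Probe sets with 1 gene symbol in the platform annotation were kept (13647; 402 had several symbols and 4720 none), and symbols were updated through the supplied gene table for 13544.

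limma 3.58.1 in R 4.3.3 was fitted with a mean-variance trend over these probe sets and 6 arrays, with Benjamini-Hochberg adjustment and a threshold of 0.05. Tables and plots were made with Python 3.11.15, pandas 2.3.3 and matplotlib 3.10.9. The fit was tested on simulated data. The number of arrays limits the precision. The 86 gene lists and the genes described were chosen with earlier results of these data known, and lists were described by counts and medians with no set test. Named genes were the 15 widest gaps in each direction outside the immune and mitochondrial lists, among passing genes whose higher age had a mean above the 60th percentile. Up to 3 genes per list and direction followed by the same conditions, then separated members that did not pass. Alternatives changed the scaling, filter, pseudocount, prior variance, arrays or block. The 30d arrays entered 1 alternative only.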

Additional observations from a re-analysis of the deposited data

How the results depend on the processing

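As deposited, 612 probe sets passed limma, 259 higher and 353 lower at 60d. The number passing was 164 (110 higher, 54 lower) with 1 prior variance for all probe sets, 1645 (760 and 885) with all 9 arrays sharing the spread, and 3865 (2078 and 1787) without replicate 1 of both ages. Median centring called 594 lower. Leaving out 1 array at a time gave 196 to 1144 in all, 109 to 451 higher and 86 to 693 lower. The lowest counts came without 60d replicate 3 (196) and 3d replicate 3 (214), the highest without 3d replicate 1 (1144). The cause was not tested. Complete separation was found for 3644 probe sets, and for 4069 to 6441 without 1 array and 9080 without replicate 1 of both ages, where fewer arrays have to separate. Same-numbered arrays of the ages did not deviate together (correlations -0.36, 0.07 and -0.11), so the numbers were not taken to pair samples. With the replicate number as a block 178 passed (80 higher, 98 lower) and 5800 were separated. Of 142 named genes that passed, 54 passed under all 14 alternatives and 0 reversed. The fewest passed with 1 prior variance (61), without 60d replicate 3 (76), without 3d replicate 3 (78) and with the block (80). Values near 0 changed sign for Cul5 (-0.0013 after median centring) and Glut1 (0.0032 after quantile normalization). Of 85 list medians 64 kept 1 sign over the scalings. Other alternatives changed the sign of further medians. That of sterol carriers was 0.229 as deposited and -0.003 without replicate 1 of both ages, and that of P450 genes ran from -0.091 to 0.259.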

Other observations

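Some genes that passed in the same direction were neighbours on a chromosome. In the order of the reference annotation 11889 genes could be placed, which gave 11883 adjacent pairs. Of these pairs 653 were separated the same way and 48 passed the same way. The passing genes formed 46 runs, 23 higher and 23 lower at 60d, with 94 genes in all. Over all genes 2.03% rose and 2.8% fell, and whether the runs exceed what these shares give was not tested. The longest runs held 3 genes, CG30151, CG30154 and Bbd among those that rose and cyst, Hasp and CG10132 among those that fell. Arc1 and Arc2, Spn88Ea and Spn88Eb, and Tsp42Eh and Tsp42Ei were pairs of related neighbours that rose. Similar neighbours can share probe sequence, and their part in these pairs was not tested.

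Probe sets of one gene did not always move together. Of 1094 genes with more than 1 probe set, 512 had at least 1 separated, and in 23 of them probe sets were separated in opposite directions, trol and Dhc64C among them. In 1 gene, trol, probe sets passed limma in opposite directions. For Galphaq and qvr 1 of 3 probe sets fell and the others overlapped between the ages, while for nwk, nAChRbeta1, Arc1 and CrebB both probe sets were separated the same way.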
